A study of Mus musculus with 10 samples.

Results

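The Pol II ChIP-seq peaks of Qk-/- cells were compared with those of WT cells. All peaks of both deposited lists were taken, 12835 regions called in Qk-/- cells and 32280 regions called in WT cells, which made 45115 of the 53186 regions in the 6 peak lists of the series. The other 4 lists hold Qki-5 and Srebp2 peaks. The Qk-/- cells came from neural stem cells (NSCs) of newborn mice that carried the Nestin-CreER T2 transgene and the floxed Qk L allele, in which loxP sites flank exon 2 of Qk, and 4-hydroxytamoxifen had been given at 100 nM to the cultures to delete that exon. Nestin is a gene of neural progenitors, and the Cre was driven by its promoter. The WT cells were labelled wild type, and whether they carried the floxed allele or received 4-hydroxytamoxifen is not given in the sources used here. Cells of both genotypes were of the FvB/C57BL6 hybrid strain, at passage 7, and had been kept for 3 days in medium with 30 ng/mL of the thyroid hormone T3 to make oligodendrocytes. Each genotype had 1 Pol II library, and 1 input library that was also used for Qki-5. No p-value between genotypes can therefore be had, and every interval below covers counting error only.

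RNA polymerase II transcribes protein-coding genes and many non-coding ones. At many promoters it starts a transcript and pauses shortly after the transcriptional start site (TSS), so that ChIP signal usually peaks there, whereas polymerase that has left the pause spreads thinly over the gene body. The antibody used here was raised against the repeated heptad of the polymerase's C-terminal domain. Qk encodes Qki, an RNA-binding protein of the STAR family, and Qki-5 is its nuclear isoform.

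MACS2, the peak caller used by the authors, gave each peak a fold enrichment over input. Ranks of fold were read within each list only. The fold and p columns together allowed the number of fragments piled up at each summit to be recovered for 99.6% of the Qk-/- peaks and 99.7% of the WT peaks. The mean ChIP coverage implied by the same columns was 1.77 fragments per base in the Qk-/- library and 1.97 in the WT library, a ratio of 0.899. The implied input coverage was 1.31 for Qk-/- cells and 1.76 for WT cells. Each ChIP had been scaled down to its input for peak calling, so that 1 fragment counted as 0.743 in Qk-/- cells and 0.895 in WT cells. The weakest peak at background needed 10 fragments in Qk-/- cells and 8 in WT cells. As a check of the genotype label, the Qki-5 list held 427 peaks in Qk-/- cells, against 7539 in WT cells. The check is a limited one, since the other Qk-/- lists were shorter as well. Srebp2 had 28 peaks in Qk-/- cells, against 77 in WT cells, and Pol II had 12835, against 32280.

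The cell type label was checked against marker genes, by whether a Pol II peak lay within 2 kb of a TSS. Of 22 genes of myelin and mature oligodendrocytes, 4 had a promoter peak in Qk-/- cells and the same number in WT cells, namely Cnp, Gstp1, Plekhb1 and Qdpr. The defining genes Mbp, Mag, Mog, Mobp, Myrf, Cldn11 and Aspa had none in either list. Of the 20 astrocyte genes, 16 had a promoter peak in each genotype, among them Gfap, Slc1a3 and Sox9. The astrocyte markers Aldh1l1, Gjb6, S100b and Sparcl1 had none in either list. Of 14 NSC genes, 12 had a promoter peak in Qk-/- cells and 13 in WT cells. Of 14 genes of oligodendrocyte precursors, 6 were called in Qk-/- cells and 9 in WT cells, and Sox10 was called at its promoter in neither. No promoter peak marked any of the 10 endothelial genes, and of 14 microglial genes 13 had none, among them Cx3cr1, P2ry12 and Csf1r. The Pol II peaks therefore did not carry the defining markers of mature oligodendrocytes, and the cells are called here by their genotype. In such bulk samples, fewer cells of a type and less Pol II per cell cannot be told apart.

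The promoter stretches of 5 genes are given first, since they stand for the 3 fates of a promoter in this comparison. Junb, a component of the AP-1 transcription factor, and Hmgcs1, which makes HMG-CoA for cholesterol synthesis, had Pol II called in both genotypes. Xpot, the exportin of transfer RNA, and Isg15, an interferon-induced ubiquitin-like protein, were called in WT only. Wnt11, a secreted Wnt ligand, was called in Qk-/- only. Each stretch is the 100 bases before the RefSeq start (GRCm38.p6, the build of the peak lists), written 5′ to 3′ on the gene's strand. Capitals mark matches on either strand to the TATA box (TATAAA), the CCAAT box, the GC box (GGGCGG), the cyclic AMP response element (TGACGTCA), the AP-1 site (TGANTCA) and the interferon-stimulated element, searched as GAAA, any 2 bases and GAAA again. The last of these was added after the values of Isg15 were seen.
Junb, chr8:84978749-84978848, minus strand: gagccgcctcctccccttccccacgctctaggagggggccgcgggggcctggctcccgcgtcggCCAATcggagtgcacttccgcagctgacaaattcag
Hmgcs1, chr13:119690251-119690350, plus strand: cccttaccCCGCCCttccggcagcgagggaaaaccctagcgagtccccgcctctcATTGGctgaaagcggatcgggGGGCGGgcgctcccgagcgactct
Xpot, chr10:121626333-121626432, minus strand: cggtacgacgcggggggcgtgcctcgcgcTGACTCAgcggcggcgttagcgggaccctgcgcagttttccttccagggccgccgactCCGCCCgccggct
Isg15, chr4:156200819-156200918, minus strand: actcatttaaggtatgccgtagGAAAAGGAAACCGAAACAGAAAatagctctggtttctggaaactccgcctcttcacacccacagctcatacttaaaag
Wnt11, chr7:98835012-98835111, plus strand: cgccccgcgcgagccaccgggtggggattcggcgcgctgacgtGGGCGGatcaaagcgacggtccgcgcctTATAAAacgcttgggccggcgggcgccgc
The summit of the peak lay 12 bp after the RefSeq start at Isg15, 66 bp after it at Wnt11, 81 bp after it at Junb, 122 bp after it at Xpot and 164 bp after it at Hmgcs1. The 3 matches of Isg15 to the interferon-stimulated element overlap, and 0.983% of 32844 RefSeq promoters hold a match in the same window. The TATA box, found at Wnt11, was present in 5.56% of those promoters, the CCAAT box in 18.9%, the GC box in 24.7%, the AP-1 site in 2.73% and the cyclic AMP response element in 1.15%. A match is a description of the letters and not evidence of a bound factor.

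Nearly every Pol II peak of the Qk-/- cells was also found in WT cells, whereas most WT peaks had no counterpart in Qk-/- cells. Of the 12835 Qk-/- peaks, 12589 (98.1%, 95% Clopper-Pearson interval 97.8 to 98.3%) overlapped a WT peak by at least 1 bp, and 246 were called in Qk-/- only. Of the 32280 WT peaks, 10897 (33.8%, interval 33.2 to 34.3%) overlapped a Qk-/- peak, and 21383 (66.2%) were called in WT only. The peaks called in WT only were weak, with a median of 14 fragments at the summit, against 69 fragments at the WT peaks that were called in both. The 246 peaks called in Qk-/- only were also weak, with a median of 15 fragments.

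The share of WT peaks that was kept depended on the length of the list. When the WT list was cut to its 12835 strongest peaks by fold, as many as the Qk-/- list has, 78.2% of them were also called in Qk-/- cells and 91.6% of the Qk-/- peaks were also called in WT cells. Scaled to the coverage of the Qk-/- library, 76.5% of the peaks called in WT only would still reach the 10 fragments of the weakest Qk-/- peak at background, and 10.4% would reach 20 fragments.

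**Figure D1:**
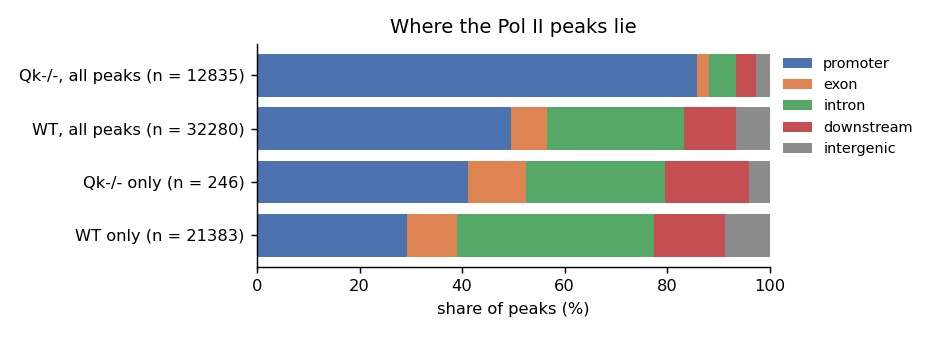
Share of Pol II peaks (%) at promoters, in exons, in introns, within 5 kb downstream of a gene end and between genes, for all peaks of each list and for the peaks called in 1 genotype only. Promoters held 85.8% of the Qk-/- list and 49.6% of the WT list, while 70.7% of the peaks called in WT only lay outside promoters.

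The peaks called in Qk-/- cells were mostly at promoters. A peak was placed at a promoter where it overlapped the 2 kb on either side of any annotated TSS. Promoters held 11013 Qk-/- peaks (85.8%, interval 85.2 to 86.4%), against 16000 WT peaks (49.6%, interval 49.0 to 50.1%). Introns held 5.38% of the Qk-/- list and 26.7% of the WT list, and exons held 2.31% of the Qk-/- list and 6.98% of the WT list. The 5 kb after gene ends held 3.86% of the Qk-/- list and 10.2% of the WT list, and intergenic sequence held 2.65% of the Qk-/- list and 6.62% of the WT list. At equal list lengths most of this gap was gone, since 82.3% of the 12835 strongest WT peaks lay at promoters. Of all WT peaks at promoters 60.9% were also called in Qk-/- cells, against 7.11% of the WT peaks outside promoters. Intronic WT peaks were kept least often, at 4.94%, and exonic, downstream and intergenic ones at 7.23%, 8.91% and 13.0%.

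The gap between promoters and other sequence held among WT peaks of like strength. In the strongest decile of the WT list by fold, 99.7% of promoter peaks and 98.3% of the 58 peaks outside promoters were also called in Qk-/- cells. In the third decile, with WT fold values from 8.75 to 14.0, the kept share was 84.5% (interval 83.0 to 85.8%) at promoters and 58.0% (interval 53.7 to 62.2%) outside them. In the fourth decile, with WT fold values from 6.20 to 8.75, it was 48.9% (interval 46.4 to 51.3%) at promoters and 18.4% (interval 16.5 to 20.4%) outside them. From the fifth decile on, less than 20% of promoter peaks were kept and less than 6% of the others. At equal list lengths, 87.5% of the WT promoter peaks and 35.4% of the other WT peaks were kept.

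**Figure D2:**
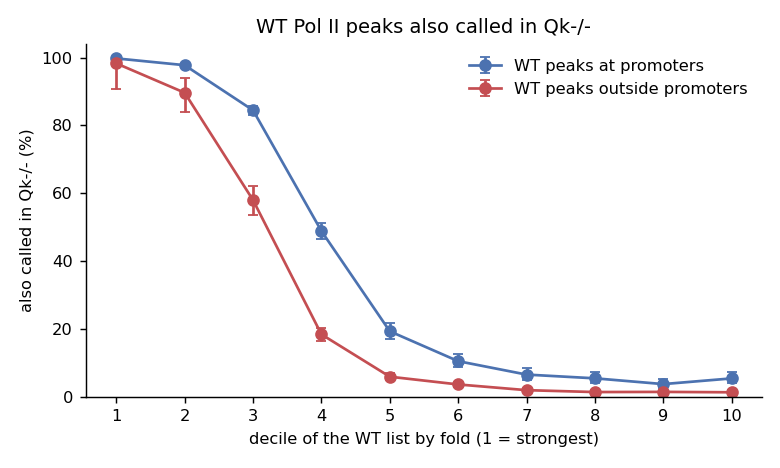
Share of WT Pol II peaks (%) that overlapped a Qk-/- peak, by decile of the WT list ordered by fold (1 is the strongest), for peaks at promoters and outside them, with 95% Clopper-Pearson intervals. Between the third and the sixth decile the promoter points lie well above the others, for example at 48.9% and 18.4% in the fourth decile.

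Where a peak was called in both genotypes, the Qk-/- peak was narrower. Among 9405 pairs in which 1 Qk-/- peak met 1 WT peak, the median width was 644 bp in Qk-/- cells and 1323 bp in WT cells, the median ratio of widths was 0.537, and the Qk-/- peak was the narrower of the pair in 96.5%. The summits kept their place, with a median distance of 33 bp between them and 80.6% of pairs within 100 bp. A single wide WT peak often covered several Qk-/- peaks, and 1358 WT peaks overlapped 2 or more of them. The WT library was the deeper one, with the ChIP coverage ratio of 0.899 given above, and its input was deeper as well. The part of depth in this result was not tested.

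Counted over genes, with the strongest peak within 2 kb of any of a gene's start sites taken as its promoter peak, Pol II was called at the promoters of 12770 genes in Qk-/- cells and 15750 genes in WT cells, of 55450 annotated genes. Of the WT promoters, 12723 (80.8%, interval 80.2 to 81.4%) were also called in Qk-/- cells and 3027 were not. A gene can have several start sites, so its strongest peaks in the 2 lists need not overlap. Of the Qk-/- promoters, 99.6% were also called in WT cells, and 47 genes had a promoter peak in Qk-/- cells only. Protein-coding genes kept their promoter peak more often, at 85.7% of 11879, than genes of lincRNAs (60.7% of 722), antisense RNAs (72.9% of 886), microRNAs (62.5% of 384) and processed pseudogenes (35.7% of 286). At equal list lengths the kept share over all genes was 90.1%, with 12276 of 13622 WT promoters.

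Rnu1a1, Polr2a and Cebpd were among the 10 strongest promoters of both lists. The top of the Qk-/- list held 4921531C22Rik (fold 81.4), the U1 small nuclear RNA gene Rnu1a1 (76.2), Actb (75.6), Ctnnb1 (75.0), the transcription factor gene Cebpd (74.0), the ferritin heavy chain gene Fth1 (72.1), Zfp36l2 (70.1), Scarna2 (68.8), Polr2a (67.7) and Gm24950 (67.2). The ranks of the same peaks in the WT list ran between 1 for Rnu1a1 and 472 for Fth1. The top of the WT list held Rnu1a1 (fold 131), Polr2a (127), Atp1b2 (122), Gm22068 (115), Junb (112), Cebpd (108), the brain creatine kinase gene Ckb (103), Gm28872 (102), Sox9 (102) and Zfp36l1 (102). The ranks of the same peaks in the Qk-/- list ran between 2 for Rnu1a1 and 311 for Junb. Over the 12723 promoters called in both, Spearman's correlation between the fold ranks was 0.635, a description across genes that share 1 pair of libraries, the same DNA sequence and often the same peak. Over the 9443 distinct pairs of peaks it was 0.621, and with −log10 q in place of fold it was 0.801.

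Summit fragments were fewer in Qk-/- cells at nearly all of these promoters. Of 12653 promoters called in both and solved in both, 12337 (97.5%) had fewer fragments in Qk-/- cells, with a median of 41 fragments in Qk-/- cells and 78 in WT cells. The median ratio was 0.545, against the coverage ratio of 0.899 between the libraries. In 9 of the 10 deciles of WT fragments the median ratio lay between 0.517 and 0.568, and it was 0.719 in the weakest decile, where a promoter had to pass the threshold in both lists to be counted. A general difference in Pol II and a difference in the efficiency of the precipitation cannot be told apart with 1 library per genotype, so the lists below are read against these values for all promoters.

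**Figure D3:**
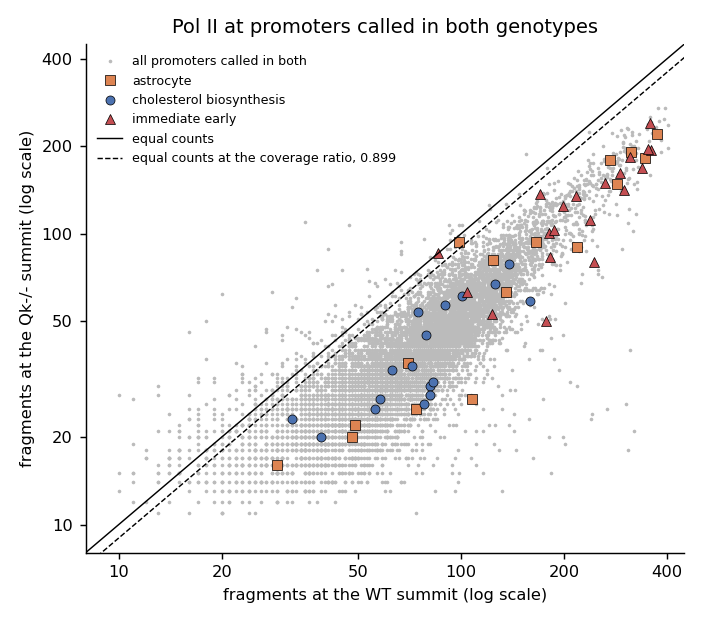
Fragments at the Qk-/- summit (y axis, log scale) against fragments at the WT summit (x axis, log scale) for promoters called in both genotypes, with genes of 3 lists marked. Promoters with the same fragments and fold in both lists share 1 grey point. Nearly all points lie under the solid line of equal counts and under the dashed line at the coverage ratio of 0.899, with a median ratio of 0.545.

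Sequence around the summits differed between promoter peaks called in both and those called in WT only, a readout that the comparison of lists did not use. This was counted over peaks, and 6261 promoter peaks were called in WT only, against 3027 promoters. A promoter peak called in WT only can therefore lie at a promoter that was kept. Within 100 bp on either side of the WT summit, promoter peaks called in both had a median GC share of 68.7% and a median of 20 CpG dinucleotides, while promoter peaks called in WT only had 51.2% and 3. The GGGCGG box was found at 52.9% of the WT promoter peaks called in both, 15.6% of those called in WT only and 21.8% of all WT peaks. TATAAA was found at 2.81% of the promoter peaks called in both, 7.12% of those called in WT only and 7.42% of all WT peaks. CCAAT was found at 11.5% of those called in both, 21.2% of those called in WT only and 18.98% of all WT peaks. Since most peaks called in both were strong and most called in WT only were weak, the comparison was repeated within the fourth decile of WT fold. There the median number of CpG dinucleotides was 16 at the 818 promoter peaks called in both and 7 at the 856 called in WT only, and GGGCGG was found at 46.6% (interval 43.1 to 50.1%) of those called in both and 27.7% (interval 24.7 to 30.8%) of those called in WT only. The gaps of the other motifs were smaller there, with overlapping intervals. TATAAA was found at 2.45% (interval 1.50 to 3.75%) of those called in both and 3.51% (interval 2.38 to 4.97%) of those called in WT only, and CCAAT at 16.7% (interval 14.2 to 19.5%) of those called in both and 19.98% (interval 17.3 to 22.8%) of those called in WT only. The 101 promoter peaks called in Qk-/- only had a median of 9 CpG dinucleotides, and 27.7% of them held GGGCGG. The summit of promoter peaks called in both lay a median of 91 bp away from the nearest TSS in WT cells. That of promoter peaks called in WT only lay 816 bp away, and 37.1% of the WT only peaks lay within 500 bp of a TSS. The fourth decile was matched for fold and not for this distance, so the part of distance in the sequence gaps was not tested.

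Promoters with Qki-5 kept their Pol II peak more often. Qki-5 was read from the deposited WT list, which holds fewer peaks than the study reports for differentiated oligodendrocytes. A promoter counted here as without Qki-5 may therefore have had a peak in the study. Of the WT promoters with Pol II that also had a WT Qki-5 peak, 93.6% (interval 92.9 to 94.2%) were called in Qk-/- cells, against 74.2% (interval 73.3 to 75.0%) of those without. Qki-5 peaks lay mostly at strong Pol II promoters, so the shares were also taken within deciles of WT promoter fold. In the seventh decile the kept share was 90.8% (interval 87.5 to 93.4%) with Qki-5 and 84.7% (interval 82.6 to 86.8%) without. In the eighth decile it was 80.6% (interval 75.7 to 84.9%) with Qki-5 and 73.2% (interval 70.6 to 75.6%) without. In the ninth decile it was 51.4% (interval 44.5 to 58.3%) with Qki-5 and 43.7% (interval 41.1 to 46.4%) without. The share was the higher one with Qki-5 in all 10 deciles, and the intervals were apart in 6 of them. In deciles 4, 5, 9 and 10 they overlapped. The strongest decile began at WT fold 32.55, above the strongest peak called in WT only, at 30.8. Its 35 promoters not called in Qk-/- cells therefore all had a WT peak that met a Qk-/- peak elsewhere. Neighbouring genes that shared a WT peak were counted separately, which makes the intervals too narrow. The part of shared peaks in these gaps was not tested.

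The strongest peaks called in WT only lay at promoters. Kitl, the ligand of the Kit receptor, had the strongest such peak, with 94 fragments and WT fold 30.8 at chr10:100015398-100016374, rank 1214 of the WT list. Isg15 had 98 fragments and WT fold 26.5, with its peak at chr4:156199995-156201644. Xpot had 87 fragments and WT fold 26.0. The calcium channel subunit gene Cacng5 had 79 fragments, the cytochrome oxidase assembly gene Coa3 71, the interferon-induced GTPase gene Mx2 75, and Egr2, an immediate early transcription factor gene, 100. The WT counts of these genes all exceeded the 10 fragments that sufficed at background in the Qk-/- library. That floor holds only where the local background is at its lowest, and the local Qk-/- background at these promoters is not known. At promoters called in both, the median ratio of Qk-/- to WT fragments was 0.545. None of these genes had a Qk-/- peak at its promoter. Ino80b (65 fragments) and Cndp2 (64 fragments) completed the 9 strongest such promoters, and the only peak among the 10 strongest called in WT only that was outside promoters lay nearest to Gm24913 (93 fragments). Pde4b, a cyclic AMP phosphodiesterase gene, had a WT peak of 29185 bp that met no Qk-/- peak, although Pde4b had a promoter peak in each list. These genes were taken from the list of peaks and not from the list of promoters. Ranked over genes, the 10 strongest promoters called in WT only were Gm22077, Snord14d, Gm36638, Gm12703, Tlcd2, Gm47954, Gm36500, Mir7091, Gm24616 and Gm24334, and each shared its WT peak with a neighbour such as Rpl3, Hspa8, Pik3r1, Jun or Tubb2b. Of the 3027 promoters called in WT only, 184 (6.08%) had a WT peak of this kind that overlapped a Qk-/- peak outside that promoter.

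The peaks called in Qk-/- only were fewer than those called in WT only. Their medians of 15 fragments for Qk-/- only peaks and 14 for WT only peaks do not rank the 2 sets. They lie above unlike floors of 10 and 8 fragments, and the highest counts were 51 in Qk-/- only and 116 in WT only. Wnt11 had the strongest peak called in Qk-/- only, with 51 fragments and Qk-/- fold 15.2 at chr7:98835014-98835386, rank 2202 of the Qk-/- list. A promoter of the tropomyosin gene Tpm1 had 44 fragments, one near the pyruvate dehydrogenase kinase gene Pdk2 had 34, and both genes also had a WT peak within 2 kb of another of their start sites or beside the Qk-/- peak. The potassium channel gene Kcnk1 had 34 fragments in Qk-/- cells, the Rab11 effector genes Rab11fip1 and Rab11fip4 had 31 and 27, Npnt had 27, Pdlim2 had 25, and Ankrd35, Tmem132b and the neuroendocrine transcription factor gene Insm1 had 22 each. Rcan2 had 20. The 47 genes with a promoter peak in Qk-/- only shared 42 peaks with a median fold of 5.27, and 38 of them were protein-coding.

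Some promoters called in both stood at different places within the 2 lists. The 12723 promoters called in both were ranked by fold within each list, and the rank was given as a percentile of these promoters, with low percentiles for strong ones. The genes below were chosen for the largest differences of percentile, so these are a description. Icosl, the ligand of the costimulatory receptor ICOS, stood at percentile 4.33 by Qk-/- fold and 92.9 by WT fold, with 89 fragments in Qk-/- cells and 41 in WT cells. The peak shared by Gm2164 and the POU-domain gene Pou3f1 had 107 fragments in Qk-/- cells and 47 in WT cells. Hap1 had 52 fragments in Qk-/- cells and 47 in WT cells, and Nanp had 54 in Qk-/- cells and 53 in WT cells. The other 6 genes that stood highest by Qk-/- fold relative to WT fold, Plekhh2, AC122487.1, Eid2, Srgap2, Celf1 and Rel, had fewer fragments in Qk-/- cells. Plekhh2 had 81 in Qk-/- cells, against 110 in WT cells, at percentile 5.44 by Qk-/- fold and 84.1 by WT fold. Among the 10 genes that stood lowest by Qk-/- fold relative to WT fold, Serpina3n, a serpin of reactive astrocytes, had 17 fragments in Qk-/- cells and 162 in WT cells. Gpr37l1, a receptor gene of astrocytes and their progenitors, had 25 in Qk-/- cells and 132 in WT cells, S1pr3 had 19 in Qk-/- cells and 125 in WT cells, and Ahcyl1 had 45 in Qk-/- cells and 110 in WT cells. The WT peak of Gpr37l1 was shared with Arl8a, that of S1pr3 with Gm32834 and that of Serpina3n with Gm24334, while that of Ahcyl1 was not shared. Cks1b, Gm45508, Gm19721, Gm33366, Gm26280 and Mir3064, the remainder of the 10, each shared a wide WT peak with a neighbouring gene.

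WT gene bodies with Pol II were called again in Qk-/- cells less often than WT promoters. The body was taken as the part of a protein-coding gene beyond 2 kb past its 5′ end and outside every promoter, in 19729 genes. Peaks lay in 703 bodies in Qk-/- cells (3.56%) and in 4345 bodies in WT cells (22.0%), and 692 of the WT bodies (15.9%, interval 14.9 to 17.1%) were also called in Qk-/- cells. The sequence under peaks in bodies came to 0.705 Mb in Qk-/- cells and 8.56 Mb in WT cells, a ratio of 0.0823. At equal list lengths it came to 0.705 Mb in Qk-/- cells and 3.56 Mb in WT cells, a ratio of 0.198, and 36.4% of 1586 WT bodies were kept. For comparison, 80.8% of WT promoters were kept, and 90.1% at equal list lengths. Every peak that reached into a body was counted, also a wide peak that began at a promoter. The WT promoter peak of Gpr37l1, for example, was 22102 bp wide and covered all 5447 bp of its body. WT peaks outside promoters had a median of 14 fragments, against 45 at WT promoters. The parts of this lower signal and of the narrower Qk-/- peaks in the body result were not tested.

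The genes with the longest bodies under WT peaks were chosen by their WT length, so the shorter Qk-/- lengths are a description and support nothing about bodies at large. Susd6 had 0 bp in Qk-/- cells, against 82460 bp in WT cells, and Pik3r1, which encodes a regulatory subunit of PI3-kinase, had 0 bp in Qk-/- cells, against 73355 bp in WT cells. Lrig1, a negative regulator of receptor tyrosine kinases, had 3347 bp in Qk-/- cells, against 73463 bp in WT cells. Qk itself had 3668 bp in Qk-/- cells, against 68907 bp in WT cells. The glial glutamate transporter gene Slc1a3 had 327 bp in Qk-/- cells, against 57953 bp in WT cells, Plpp3 had 981 bp in Qk-/- cells, against 60242 bp in WT cells, and the carboxypeptidase gene Cpe had 2255 bp in Qk-/- cells, against 64795 bp in WT cells. Gm20388, an annotation that runs over many other genes, had 6663 bp in Qk-/- cells, against 65802 bp in WT cells.

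The ceruloplasmin gene Cp was among the 10 longest of each list, with 45342 bp in Qk-/- cells and 49649 bp in WT cells. Hps3, which overlaps its end, had 21615 bp in Qk-/- cells and 24901 bp in WT cells. The amino acid transporter gene Slc38a1 had 19782 bp in Qk-/- cells, against 57141 bp in WT cells, Acsl3 had 11373 bp in Qk-/- cells, against 34100 bp in WT cells, and the complement gene C3 had 8095 bp in Qk-/- cells, against 17050 bp in WT cells. Zhx3 and Plcg1, which overlap, had 6696 bp each in Qk-/- cells, against 25348 and 16118 bp in WT cells, and Heg1 had 8035 bp in Qk-/- cells, against 11190 bp in WT cells. Arvcf had 7762 bp in Qk-/- cells, against 4659 bp in WT cells, and Amotl2 had 7744 bp in Qk-/- cells, against 6498 bp in WT cells. Of the bodies called in both lists, 20 had more bases under Qk-/- peaks than under WT peaks.

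**Figure D4:**
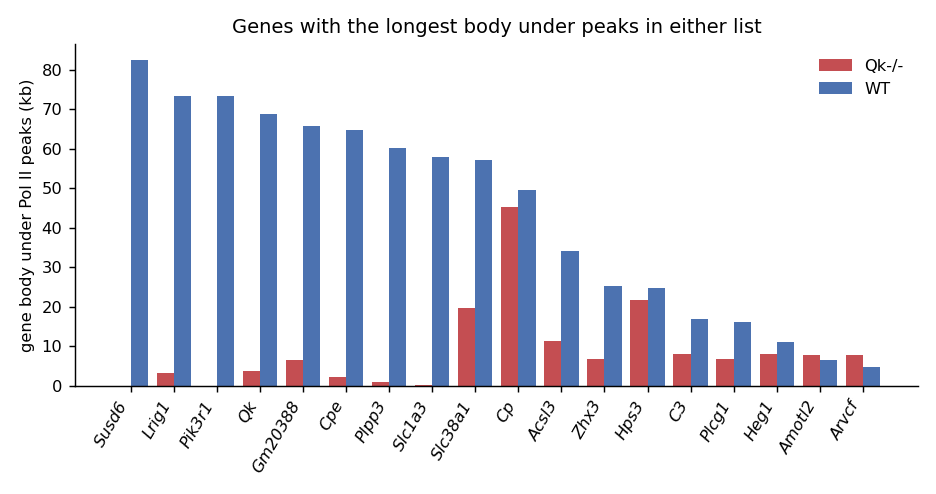
Length of gene body under Pol II peaks (kb) in Qk-/- cells (left bar of each pair) and WT cells (right bar) for the 18 genes that had the longest in either list. Cp and Hps3 had bars of like height in both genotypes, only Amotl2 and Arvcf had a taller Qk-/- bar, and Susd6 and Pik3r1 had no Qk-/- bar.

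Cholesterol synthesis was the pathway the study followed at these promoters. The study reported lower Pol II occupancy in Qki-depleted cells at most promoters bound by Srebp2. That was measured as read density over another set of genes, unlike the peak calls and summit fragments used here. Cholesterol synthesis runs between acetyl-CoA and cholesterol, and Srebp2 is its main transcriptional activator. All 22 genes of the list had Pol II at the promoter in WT cells, and 17 of them (77.3%) also had it in Qk-/- cells, against 80.8% over all genes. At equal list lengths 16 of 21 (76.2%) were kept, against 90.1% over all genes. The 5 genes called in WT only were Fdft1, Fdps, Lss, Nsdhl and Tm7sf2. Squalene synthase, encoded by Fdft1, had 73 fragments in WT cells and WT fold 14.4. Lanosterol synthase, encoded by Lss, had 32 fragments in WT cells, Fdps, encoding farnesyl diphosphate synthase, had 20, Nsdhl had 31 and Tm7sf2 had 34.

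The other 17 cholesterol genes had a promoter peak in both lists, and all 17 had fewer fragments in Qk-/- cells. At Pmvk, with 20 fragments in Qk-/- cells and 39 in WT cells, the 2 peaks did not overlap, so these counts are not of the same site. Hmgcs1 had 59 fragments in Qk-/- cells and 159 in WT cells. Cyp51 had 25 fragments in Qk-/- cells and 56 in WT cells, Msmo1 had 28 in Qk-/- cells and 81 in WT cells, Idi1 had 30 in Qk-/- cells and 81 in WT cells, and the squalene epoxidase gene Sqle had 26 in Qk-/- cells and 78 in WT cells. The median ratio over the 17 genes was 0.513, close to the 0.545 over all promoters. The counts of this and the other lists stand beside 80.8% kept over all genes. In genes of sterol sensing, uptake and transport, 13 of 15 WT promoters were kept (86.7%). The sterol carrier gene Stard4 had 45 fragments in WT cells and was not called in Qk-/- cells. Insig1, a brake on Srebp processing, had 188 fragments in Qk-/- cells and 312 in WT cells, and Srebf2, the gene of Srebp2, had 35 in Qk-/- cells and 66 in WT cells. In fatty acid synthesis and desaturation, 11 of 13 were kept (84.6%), near the share over all genes. Scd1, with 12 fragments in WT cells, and Elovl7, with 31, were called in WT only, and at equal list lengths neither had a WT peak and all 11 remaining genes were kept.

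**Figure D5:**
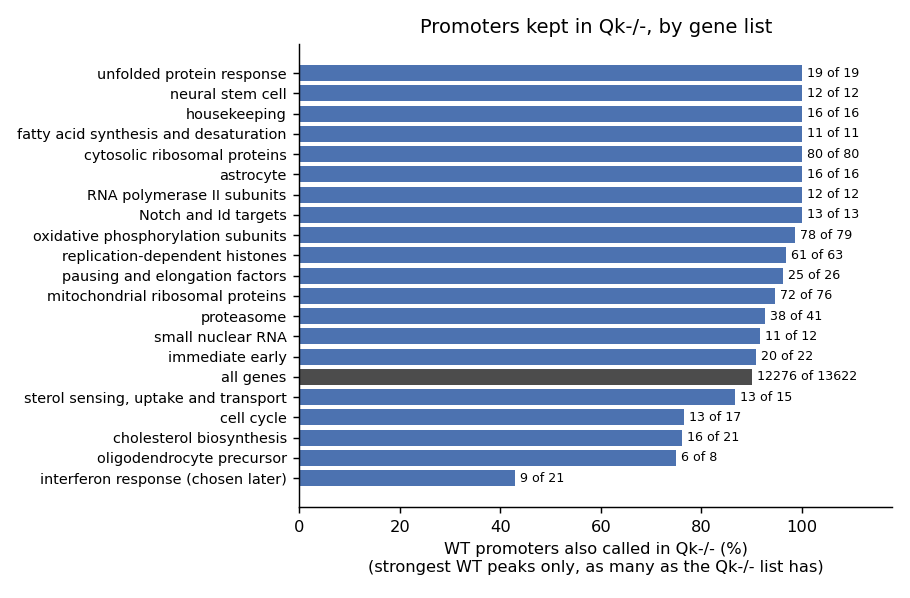
Share of WT promoters (%) also called in Qk-/- cells for each gene list with at least 8 WT promoters, with the WT list cut to the size of the Qk-/- list. The dark bar of all genes stands at 90.1%, the bar of cholesterol synthesis at 76.2% and that of the interferon list, which was chosen after its values were seen, at 42.9%.

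The promoter of Qk, whose exon 2 is deleted, was called in both genotypes, with 37 fragments in Qk-/- cells and 99 in WT cells. A promoter peak lies outside the deleted exon, so it does not check the genotype. Of the 12 genes of Pol II subunits, all were kept, and Polr2a had 272 fragments in Qk-/- cells and 396 in WT cells. Of 27 genes of pausing and elongation factors, 26 were kept, and Nelfcd was called in WT only.

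Promoters of genes that most cells express are given beside the 80.8% kept over all genes, and beside the 97.8% kept in the strongest decile of WT promoters. All 80 promoters of cytosolic ribosomal proteins called in WT cells were also called in Qk-/- cells, as were 78 of 81 promoters of oxidative phosphorylation subunits, 72 of 78 of mitochondrial ribosomal proteins, 61 of 63 of replication-dependent histones, 38 of 41 of proteasome subunits and all 16 housekeeping genes. Actb had 234 fragments in Qk-/- cells and 372 in WT cells, and Gapdh had 189 in Qk-/- cells and 306 in WT cells. The median fragment ratio of the housekeeping genes was 0.590, of the ribosomal proteins 0.558 and of the oxidative phosphorylation genes 0.522. At 1 ribosomal protein promoter, that of Rps14, the fragments were not fewer in Qk-/- cells, with 70 in Qk-/- cells and 60 in WT cells. The 2 peaks of Rps14 did not overlap, nor did those of Rpl18. Genes of the unfolded protein response were kept in 19 of 20 annotated cases, with Trib3 called in WT only.

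All 16 astrocyte promoters called in WT cells were also called in Qk-/- cells, though at Aqp4 the 2 peaks did not overlap. Their median WT rank lay at 2.54% of the WT list, and in the strongest decile of WT promoters 97.8% of all genes were kept. Sox9 had 192 fragments in Qk-/- cells and 314 in WT cells, Atp1b2 had 221 in Qk-/- cells and 375 in WT cells, and Clu had 94 in Qk-/- cells and 99 in WT cells. The glial fibrillary gene Gfap had 25 fragments in Qk-/- cells and 74 in WT cells. The median ratio over the list was 0.524. NSC genes were kept in 12 of 13 cases, among them Sox2, with 86 fragments in Qk-/- cells and 158 in WT cells, and Vim, with 182 in Qk-/- cells and 314 in WT cells. Of the oligodendrocyte precursor genes 6 of 9 were kept (66.7%), and at equal list lengths 6 of 8 (75.0%), against 90.1% over all genes. Olig2, a transcription factor gene of this lineage, had 16 fragments in Qk-/- cells and 111 in WT cells, and Olig1 had 56 in Qk-/- cells and 136 in WT cells. Nkx2-2 (40 fragments in WT cells), Vcan (28) and Pdgfra (11) were called in WT only. Of the 7 neuronal genes called in WT cells 1 was kept (14.3%), against 80.8% over all genes, and at equal list lengths 1 of 4, against 90.1%. These 7 promoters were weak, with a median WT fold of 7.17. That value lies in the ninth decile of WT promoter fold, where 44.8% of all genes were kept.

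Immediate early genes were among the strongest promoters of both lists. Of 23, 20 were kept (87.0%), and at equal list lengths 20 of 22 (90.9%), near the 80.8% and 90.1% over all genes. Fos had 168 fragments in Qk-/- cells and 338 in WT cells, Junb had 196 in Qk-/- cells and 351 in WT cells, Egr1 had 80 in Qk-/- cells and 245 in WT cells, and Klf4 had 50 in Qk-/- cells and 177 in WT cells. Klf2 had 86 in each. Egr2, Nr4a1 and Fosb were called in WT only, with 100, 46 and 27 fragments in WT cells. The median ratio was 0.556. Cell cycle genes were kept in 14 of 24 cases (58.3%), against 80.8% over all genes, and at equal list lengths in 13 of 17 (76.5%), against 90.1%. Their median WT fold was 9.98, and 74.6% of all genes were kept in the decile of WT promoters with fold from 7.79 to 10.2. The 10 called in WT only were Ccna2, Ccnd1, Ccne1, Ccne2, Cdk1, Cdk6, E2f1, Mcm2, Mcm5 and Mki67, of which Ccna2, Ccnd1, Ccne1 and Mcm5 had a peak in the shortened WT list. Other mitotic and S-phase genes, Aurka, Birc5, Ccnb1, Mcm4, Mcm7 and Pcna, were called in both, though at Mcm7 the Qk-/- and WT peaks did not overlap. Genes of the Notch pathway and the Id family were kept in 13 of 13 cases, and small nuclear RNA genes in 11 of 13. Genes of STAR and Igf2bp RNA-binding proteins were kept in 4 of 5 cases, with Igf2bp2 called in WT only. Of 39 Hox genes 38 had no promoter peak in either list and 1 was called in both. Among 10 fibroblast and pericyte genes, Tagln was called in WT only and the others in neither list.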

How the data were processed

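Per the labels and the study's methods, chromatin of each genotype was precipitated with an antibody against the Pol II C-terminal repeat, giving 1 library per genotype. The methods give Trim Galore 0.4.4, Bowtie2 2.3.4.1, removal of duplicates with SAMtools 1.8 and MACS2 2.1.2 on paired fragments at q 0.05 against the input of the same genotype, whereas the submitters' processing notes name Bowtie 1.2.2 with MACS2 2.1.2 and mm10. The input libraries were not analysed here. The deposited peak lists hold, per the file layout of MACS2, a fold ratio over input, −log10 p, −log10 q and an integer score for each peak, as the authors called them, library by library. Depth is not given in the files.

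Peaks were matched by an overlap of at least 1 bp and annotated with GENCODE vM21 (GRCm38). Promoters were TSS ± 2 kb. Fragments were solved from the deposited fold and −log10 p columns within a tolerance of 0.001, which was tested on 3000 simulated peaks per list, where 99.4% of the Qk-/- peaks and 99.9% of the WT peaks were solved, all of them exactly. Promoter sequences were from RefSeq (GRCm38.p6). Shares carry 95% Clopper-Pearson intervals, which cover counting only. The analyses used Python with numpy 2.4.6, scipy 1.17.1, pandas 2.3.3, pysam 0.24.0 and matplotlib 3.10.9.

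Named genes were those the study names, the genes nearest the 10 strongest peaks of each list, the 10 strongest promoters called in 1 genotype only, the 10 largest rises and falls of rank, the 10 longest bodies under peaks, and members of 26 gene lists. The members and lists were chosen with earlier results of these data known. A further list, of interferon genes, the interferon-stimulated element and the genes of the strongest peaks called in 1 genotype were chosen after their values were seen. Some genes of these lists are not reported here. Alternatives were other thresholds, list lengths, overlaps, promoter windows and gene sets.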

Additional observations from a re-analysis of the deposited data

How the results depend on the processing

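No paired analysis was possible because each genotype had 1 library. WT peaks also called in Qk-/- cells (33.8%) came to 37.0% at a q-value of at most 0.01, 56.5% at a fold of at least 5, 78.2% and 79.4% for the strongest WT peaks by fold and by −log10 q, as many as the Qk-/- list has, and 33.0% for summits within 500 bp. Qk-/- peaks also called in WT cells (98.1%) came to 97.0% at fold 5, 91.6% and 92.8% at equal lengths, 97.2% for an overlap of at least 50% of the shorter peak and 83.8% for summits. The promoter share of the Qk-/- list (85.8%) came to 90.3% at fold 5, 82.8% and 79.1% for TSS ± 1 kb and ± 500 bp, and 81.7% for protein-coding genes. That of the WT list (49.6%) came to 52.5% at q 0.01, 71.3% at fold 5, 82.3% and 83.5% at equal lengths, 43.0% and 38.3% for the narrower windows and 43.5% for protein-coding genes, so that the gap to the Qk-/- list depends mostly on list length. Kept promoters (80.8%) came to 90.1% at both equal lengths and 85.7% for protein-coding genes. Kept bodies (15.9%) came to 20.4% at fold 5, 36.4% and 38.0% at equal lengths and 20.8% for ± 1 kb. The Spearman correlation of fold ranks (0.635) came to 0.604 at fold 5, 0.615 and 0.620 at equal lengths, 0.623 for ± 500 bp, 0.618 for protein-coding genes and 0.801 with −log10 q.

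Alternatives chosen after seeing the data kept only WT peaks that reach 10 or 20 fragments at the Qk-/- coverage. WT peaks were then kept at 39.9% and 82.1%, kept promoters came to 82.0% and 90.6%, kept bodies to 18.3% and 40.2%, and the WT promoter share to 54.7% and 85.4%. Counting a promoter as kept where its WT peak met a Qk-/- peak anywhere gave 81.9%, and the correlation over distinct pairs of peaks was 0.621. All other alternatives run gave values within the 95% interval of the value in the report. The cause of these shifts was not tested, beyond the shorter lists that each threshold leaves.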

Other observations

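Interferon-response genes stood out among the peaks called in WT only, and the list of 23 such genes was written after Isg15 and Mx2 had been seen there. Pol II was called at the promoters of 9 of them in Qk-/- cells and 21 in WT cells, and the kept share was 42.9%, against 80.8% over all genes. At equal list lengths it was again 9 of 21, against 90.1% over all genes. The 12 called in WT only were Bst2, Ddx58, Ifih1, Ifit1, Ifit3, Irf7, Isg15, Mx2, Oasl2, Psmb9, Rsad2 and Tap1, of which Psmb9 and Tap1 share a peak. In WT cells Ifit3 had 58 fragments, Ifit1 54, Ddx58, which encodes the RNA sensor RIG-I, 47, and the transcription factor gene Irf7 43. The 9 kept genes had fewer fragments in Qk-/- cells, with a median ratio of 0.369, against 0.545 over all promoters. Usp18 had 47 fragments in Qk-/- cells and 150 in WT cells, Ifi27 had 23 in Qk-/- cells and 80 in WT cells, and B2m had 102 in Qk-/- cells and 242 in WT cells. With 1 library per genotype it cannot be told whether another pair of cultures would show this.

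Only 316 of the 12653 solved promoters called in both had at least as many fragments in Qk-/- cells as in WT cells, and 234 of them lay in the weakest decile of WT fragments. Pawr, a pro-apoptotic gene, had 62 fragments in Qk-/- cells and 20 in WT cells, Rhpn2 had 46 in Qk-/- cells and 16 in WT cells, Sostdc1 had 28 in Qk-/- cells and 10 in WT cells, Prelp had 50 in Qk-/- cells and 18 in WT cells, and Hs3st1 had 63 in Qk-/- cells and 28 in WT cells. These genes were chosen after their values were seen.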
